A study of Homo sapiens with 12 samples.

Results

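Transcripts of 34 genes of cholesterol and fatty acid synthesis were followed in T24, an established cell line derived from bladder cancer in a person. The genes were chosen by symbol and are 34 of the 60603 genes in the deposited count table. They fall into 20 genes of sterol synthesis and its feedback (SREBP2 type), 7 genes of fatty acid synthesis (SREBP1 type), 3 genes under liver X receptor control (LXR type) and 4 regulators, SREBF1, SREBF2, SCAP and INSIG2. All 34 passed the filter on low counts. RNA-seq of poly(A) RNA gave 12 libraries, 3 in each of 4 groups: T24 cells of genotype WT without treatment, WT with 5-Ad-IAA, NS1 without treatment, and NS1 with 5-Ad-IAA. The series concerns AlissAID, in which a binding protein brings an untagged protein of the cell to an auxin-dependent ubiquitin ligase, and 5-Ad-IAA is the auxin derivative that serves as inducer. The labels do not spell out NS1, do not say which parts of the system WT cells carry, and do not say whether NS1 is 1 clone. All groups share the T24 background and a medium with serum, which supplies lipoproteins. How much 5-Ad-IAA was given, and for how long, is not used here.

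Cells make cholesterol from acetyl-CoA through mevalonate, squalene and lanosterol, and make fatty acids from the same precursor through malonyl-CoA. Most enzymes of both routes are transcribed under sterol regulatory element-binding proteins (SREBPs), membrane-bound factors that SCAP carries to the Golgi for activation when membrane sterol is low and that INSIG1 and INSIG2 hold back when it is high. SREBP2, from SREBF2, acts mainly on the sterol genes, and SREBP1, from SREBF1, mainly on the fatty acid genes. Liver X receptors respond to oxidised sterols and raise genes of sterol export, and they also raise SREBF1.

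Library totals ran from 10593934 to 20266996 counts, and the replicate 1 library was the deepest in each group. Levels are given as CPM, TMM-normalised counts scaled to a common library size. Of 13 urothelial and epithelial markers 7 had a mean of at least 10 CPM, among them KRT7, KRT8, KRT18 and KRT19, while UPK3A had no count and CDH1, UPK1A and UPK1B stayed under 1 CPM. Of 9 markers of mesenchymal, leukocyte and endothelial cells 4 had a mean of at least 10 CPM, namely VIM, CDH2, ZEB1 and CD68. PTPRC and CD3E stayed under 1 CPM in every library. The summed level of the 9 was between 196 and 263 CPM in all 12 libraries. In the SREBP2 type genes replicate 1 of treated WT cells was low to a lesser degree, as given below. The 2 NS1 libraries numbered 1 stood farthest apart from the others in the genes described here. Results between the lines are therefore also given without them or without replicate 1 of every group. No label says whether replicates came from separate cultures, so p-values measure the spread between these libraries, which may be technical.

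Promoter sequence was looked at because many of these genes moved together between libraries. The RefSeq promoters on GRCh38.p14 cover 250 bases before to 50 after each annotated start, and 29 of the 34 genes matched 39 of them. The CCAAT box, bound by NF-Y, a factor that works beside SREBPs, was searched as CCAAT on both strands. At least 1 start held it in 15 of 17 SREBP2 type genes (88.2%), 4 of 6 SREBP1 type genes (66.7%) and 39.7% of 27305 genes with a promoter. The sterol regulatory element, TCACNCCAC on both strands, was found in 1 of the 29 genes, SREBF2, against 1.39% of all genes. The Sp1 box GGGCGG was in 28 of 29 against 48.3%, and the E-box CACGTG in 5 of 29 (17.2%) against 8.77%. The direct repeat bound by LXR had no exact match in the 29 and was in 0.0256% of all genes. The shares of all genes cover the 27305 genes whether expressed or not, while all 34 genes passed the filter on low counts. None of these matches says that a factor binds. Only exact matches inside these promoters were counted, so a missing match does not show that a gene lacks the element. Below are the 150 bases before the start of 6 genes, with CCAAT boxes and the sterol element in capitals. TM7SF2 is shown for its response to the inducer, MVD and MVK for their low level in the NS1 libraries numbered 1, PMVK and CYP51A1 as the SREBP2 type genes without a CCAAT box, and SREBF2 for its sterol element.
TM7SF2, chr11:65111722-65111871, plus strand: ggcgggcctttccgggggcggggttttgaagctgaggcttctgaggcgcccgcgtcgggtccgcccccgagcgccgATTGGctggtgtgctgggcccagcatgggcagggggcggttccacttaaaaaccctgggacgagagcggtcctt
MVD, chr16:88663092-88663241, minus strand: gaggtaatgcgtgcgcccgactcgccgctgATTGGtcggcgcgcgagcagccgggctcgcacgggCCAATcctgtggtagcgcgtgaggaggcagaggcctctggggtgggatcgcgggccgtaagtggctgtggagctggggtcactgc
MVK, chr12:109573644-109573793, plus strand: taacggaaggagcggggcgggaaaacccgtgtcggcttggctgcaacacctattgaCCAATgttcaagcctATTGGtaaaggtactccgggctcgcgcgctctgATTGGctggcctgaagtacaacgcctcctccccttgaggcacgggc
PMVK, chr1:154936720-154936869, minus strand: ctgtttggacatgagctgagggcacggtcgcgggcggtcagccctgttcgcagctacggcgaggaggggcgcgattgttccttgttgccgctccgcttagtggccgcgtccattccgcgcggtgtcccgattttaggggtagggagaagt
CYP51A1, chr7:92134478-92134627, minus strand: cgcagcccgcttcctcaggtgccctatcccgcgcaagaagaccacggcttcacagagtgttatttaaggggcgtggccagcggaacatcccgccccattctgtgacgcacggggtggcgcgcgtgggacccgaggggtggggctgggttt
SREBF2, chr22:41832955-41833104, plus strand: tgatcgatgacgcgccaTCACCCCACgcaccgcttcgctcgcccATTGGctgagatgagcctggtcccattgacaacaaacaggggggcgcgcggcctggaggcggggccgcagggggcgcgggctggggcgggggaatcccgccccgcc
The sterol element of SREBF2 lay 133 to 125 bases before the start. MVK held 3 CCAAT boxes in this window and MVD 2, TM7SF2 and SREBF2 held 1 each, and PMVK and CYP51A1 held none.

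Transcript levels differed widely among the genes. Per kilobase of exon, in untreated WT cells, SCD, the desaturase that makes oleate, was highest at 179 CPM per kilobase. ACLY, which makes cytosolic acetyl-CoA, followed at 99.4, FASN, the fatty acid synthase, at 95.9, and DHCR7, the reductase that ends one route to cholesterol, at 86.1. The lowest genes of synthesis were HSD17B7 at 3.72 and ELOVL6 at 2.63 CPM per kilobase. The LXR type genes were near the limit of detection at 0.142 to 0.551 CPM per kilobase. Exon lengths came from GENCODE release 29 on GRCh38. In that annotation 15 of the 34 genes share exon bases with another gene, so reads there could be counted for either gene or left out. How reads that overlap several genes were counted is not given in the sources used here. FDPS and HSD17B7 have pseudogene copies, and the handling of reads that match several places is not given in the sources used here.

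**Figure D1:**
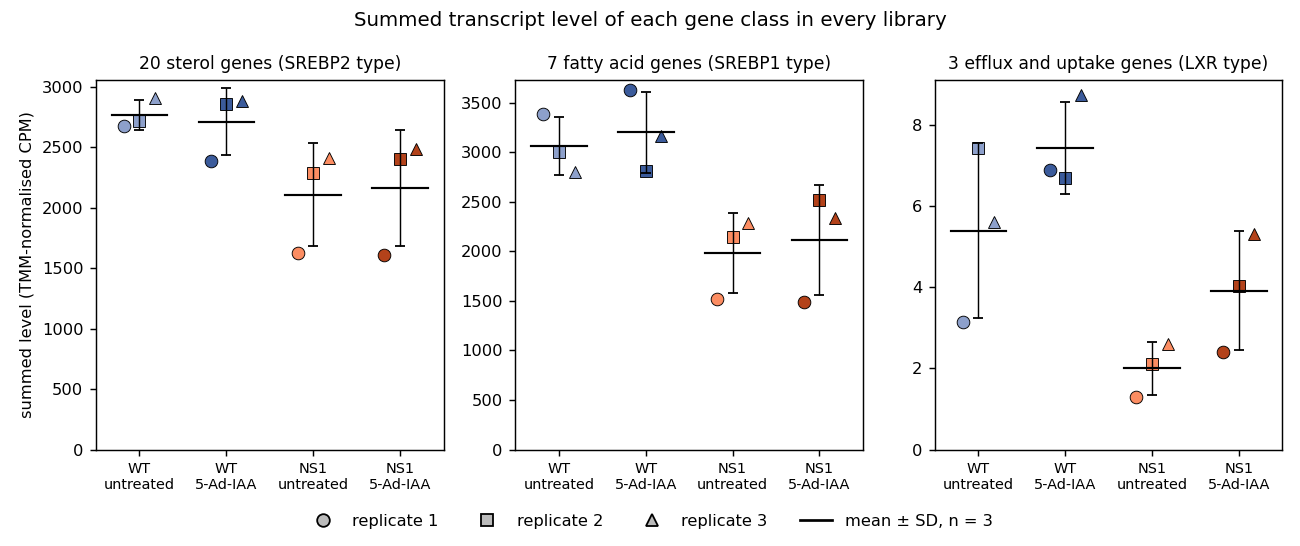
Summed level of the SREBP2, SREBP1 and LXR type genes (y axis, TMM-normalised CPM, from 0) in each library, by group (x axis); symbols mark the replicate number, and bars are the mean ± SD of 3 libraries. For the SREBP2 type, the NS1 libraries numbered 1 lie lowest, at 1625 and 1610 CPM, and the WT libraries lie between 2391 and 2911 CPM.

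In WT cells the inducer was followed by no detectable change in these genes. Of the 34, 0 were called, meaning an adjusted p under 0.05 in edgeR's quasi-likelihood test over all 17775 genes tested, and the share of all genes called was 0%. At an unadjusted p under 0.05 there were 0 of the 34 and 94 of all genes, and DESeq2 called 0 of both. The median log2 fold change was -0.02 over the SREBP2 type, 0.07 over the SREBP1 type and near 0 over all genes. Summed SREBP2 type levels were 2676, 2722 and 2911 CPM in untreated and 2391, 2862 and 2884 CPM in treated WT libraries, which overlap. The 95% intervals still allow moderate changes: for FADS1, a desaturase of polyunsaturated fatty acids, the log2 fold change was 0.06 with an interval from -0.15 to 0.28. For SCD the interval ran from -0.78 to 0.95.

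In NS1 cells the main fit, without pairing by replicate number, called 1 of the 34 genes with inducer (2.94%), against 6.15% of all genes. That gene was TM7SF2, a sterol reductase that acts on the product of CYP51A1 (ENSG00000149809.14, chr11:65111845-65116384, GRCh38, plus strand). It had 14.6, 20.4 and 21.6 CPM in untreated and 28.1, 37.5 and 46.6 CPM in treated NS1 libraries. Every treated library was above every untreated one. The log2 fold change was 0.99 (SE 0.19, 95% interval 0.59 to 1.39, edgeR adjusted p = 0.00912), a 1.98-fold rise. WT libraries had 31.3, 26.4 and 32.8 CPM without and 32.8, 29.2 and 30.6 CPM with inducer, so untreated NS1 libraries were below the WT range and treated NS1 libraries within or above it. The call was kept in each of the 6 fits without 1 library (log2 0.80 to 1.16) and without both NS1 libraries numbered 1 (1.00). It was lost with replicate 2 or with replicate 3 left out of all groups, where the log2 fold change was 1.05 and 0.91, the adjusted p reached 0.202 and 0 of all genes were called. TM7SF2 shares 16 exon bases with VPS51 on the same strand.

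**Figure D2:**
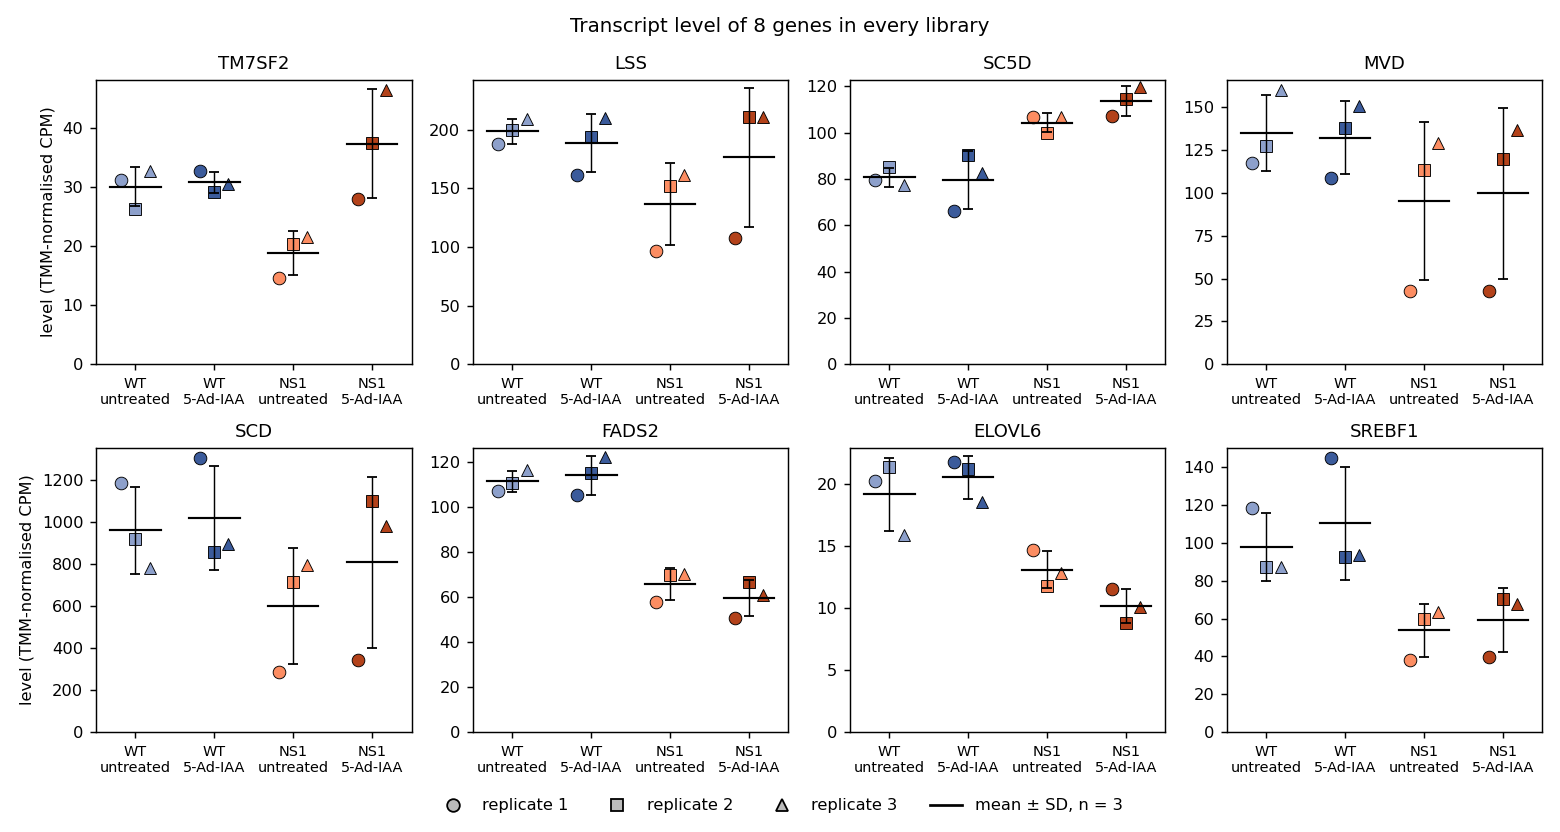
Level of 8 genes (y axes, TMM-normalised CPM, each from 0) in every library, by group (x axis); symbols mark the replicate number, and bars are the mean ± SD of 3 libraries. TM7SF2 is highest in treated NS1 libraries numbered 2 and 3, FADS2 and ELOVL6 are lower in every NS1 library than in any WT library, and MVD and SCD are lowest in the NS1 libraries numbered 1.

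Levels of the sterol route as a whole overlapped between treated and untreated NS1 libraries. The SREBP2 type genes had a median log2 fold change with inducer of -0.06 in NS1 cells, against 0.01 over all genes, and their summed levels overlapped between groups at 1625, 2290 and 2414 CPM without and 1610, 2402 and 2483 CPM with inducer. For CYP51A1, the lanosterol demethylase just before TM7SF2, the log2 fold change was 0.02 (95% interval -0.21 to 0.25). MSMO1, the methylsterol oxidase that follows, gave 0.02 (-0.44 to 0.49). LBR, a nuclear envelope protein that can carry out the same step as TM7SF2, was looked at after its values were seen. It had 72.2, 63.0 and 56.7 CPM without and 53.2, 44.3 and 37.3 CPM with inducer in NS1 cells, a difference of -0.51 on the log2 scale (SE 0.15, adjusted p = 0.0564 in edgeR). All treated values of LBR lay below all untreated ones, which is opposite to TM7SF2.

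Libraries of 1 line with the same replicate number varied together, so the inducer effect was also fitted with a replicate block within each line. That fit called 7 of the 34 genes, 5 higher and 2 lower, where 25.9% of all genes were called. Besides TM7SF2 (log2 0.98, adjusted p = 2.03e-06), the higher ones were LSS, SCD, INSIG1 and ABCG1. LSS, which closes squalene epoxide into lanosterol, went from 97.0, 152 and 162 to 108, 211 and 211 CPM (log2 0.34, SE 0.08, adjusted p = 0.00489), a rise in each of the 3 numbered pairs. SCD went from 286, 715 and 798 to 345, 1102 and 980 CPM (log2 0.40, SE 0.09, adjusted p = 0.00373), again in each pair. INSIG1, which retains SCAP in the endoplasmic reticulum, changed by 0.23 (adjusted p = 0.0255). The lower genes were ELOVL6, which elongates palmitate, and HSD17B7, a sterol reductase that also has a steroid substrate. ELOVL6 went from 14.7, 11.8 and 12.8 to 11.5, 8.82 and 10.1 CPM (log2 -0.37, SE 0.10, adjusted p = 0.0154), without overlap between the groups. HSD17B7 changed by -0.35 (adjusted p = 0.0483), and its groups overlapped. Without the block, the adjusted p of these 6 genes was between 0.192 and 0.616. With replicate 1 left out of all groups, LSS, SCD and ABCG1 were called beside TM7SF2, against 11.4% of all genes.

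The difference between the inducer effects in NS1 and WT cells was fitted as an interaction. In the unblocked edgeR fit 0 of the 34 genes were called, against 0.0225% of all genes, with 2 of the 34 at an unadjusted p under 0.05. TM7SF2 had an interaction of 0.95 (SE 0.26, adjusted p = 0.128), and DESeq2 called it, alone of the 34 (adjusted p = 0.0284). Blocking by replicate number within the lines, 3 of the 34 were called, against 14% of all genes. They were TM7SF2 (0.93, adjusted p = 0.000176), LSS (0.42, adjusted p = 0.0186) and ELOVL6 (-0.47, adjusted p = 0.0313). For these 3 genes the difference between the lines had the same sign in all 3 numbered pairs. They were picked by this fit on the same values, so the shared sign adds no separate support. Replicate numbers were also not taken to pair the lines.

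**Figure D3:**
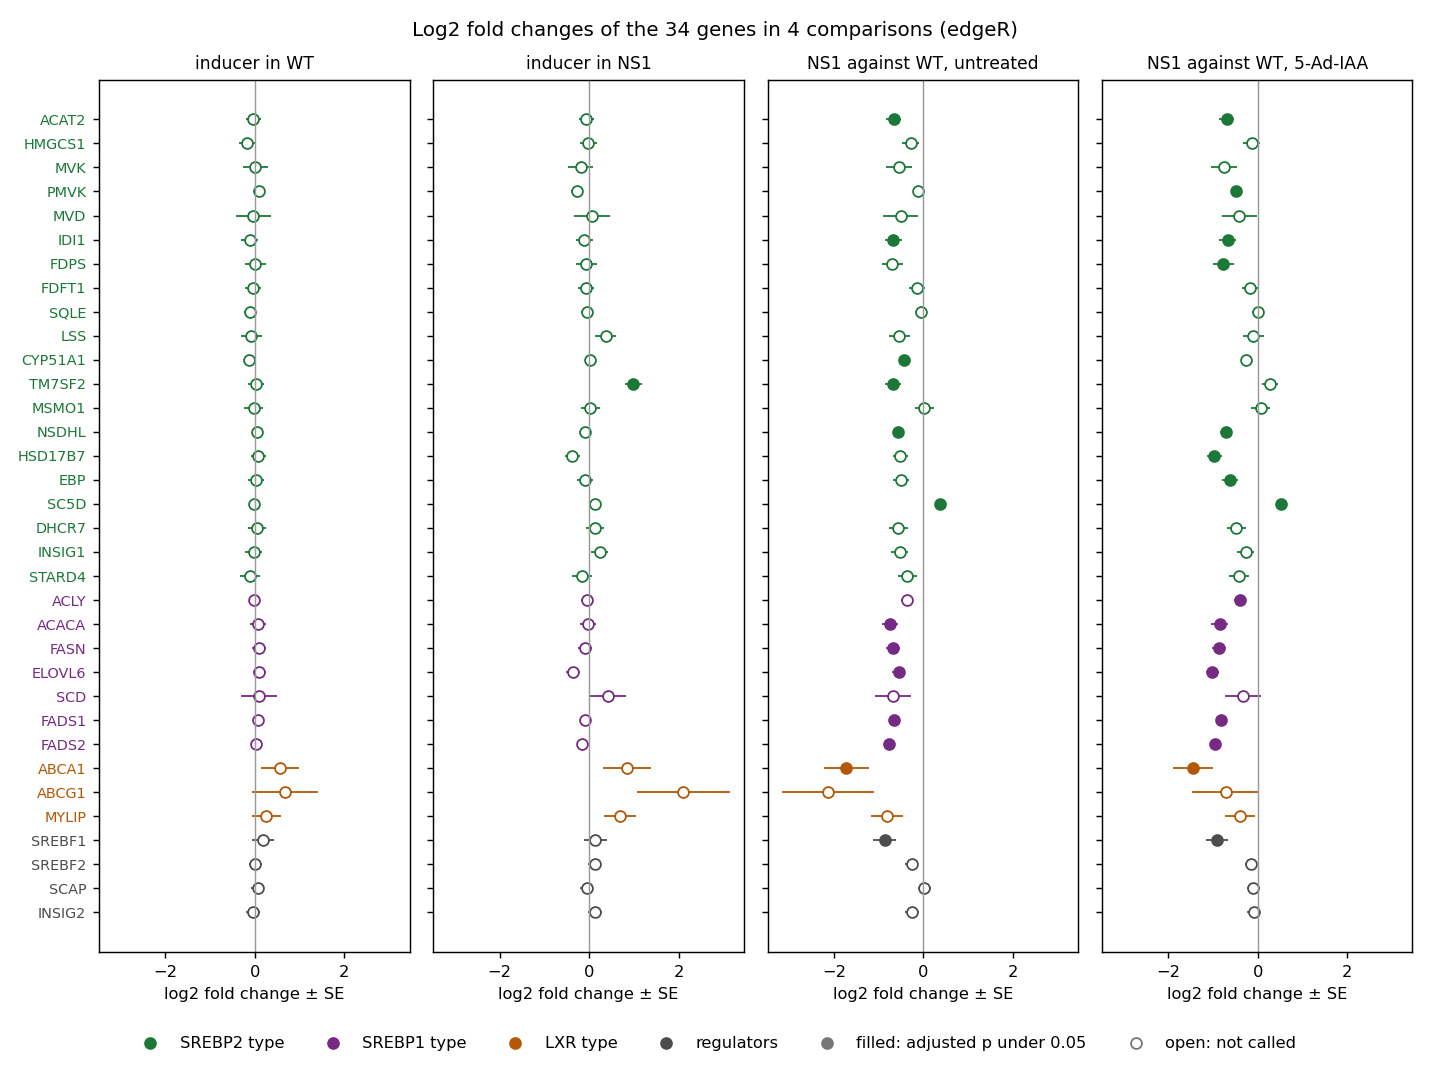
Log2 fold change ± SE (x axes) of the 34 genes (y axis) for the inducer in WT, the inducer in NS1, and NS1 against WT without and with inducer; colours mark the classes and filled points an adjusted p under 0.05 in edgeR. In the panels comparing the lines, 31 of 34 points lie below 0, and in the inducer panels TM7SF2 in NS1 is the filled point.

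Between the lines, genes of both routes were lower in NS1 than in WT cells. Without inducer 12 of the 34 genes were called lower, against 7.05% of all genes, and 1 was called higher, against 5.45%. With inducer 15 were called lower, against 14.5%, and 1 higher, against 13.6%. In 24 of the 34 genes every untreated NS1 library was below every untreated WT library, as in 16.2% of all genes. With inducer this held for 18 of the 34, against 22.2%. The 2 comparisons share no library, although libraries of 1 line with the same number varied together. Of the 34 genes 11 were called in the same direction in both comparisons, as were 9.38% of all genes. These 11 are 84.6% of the 13 genes called without inducer and 68.8% of the 16 called with it. Over all genes the same shares were 75% and 33.3%. Markers moved between the lines too: in all libraries VIM, a mesenchymal filament, had 54.0 to 87.7 CPM in WT and 23.5 to 33.3 CPM in NS1, and CDH2, N-cadherin, 80.0 to 105 CPM in WT and 131 to 191 CPM in NS1. The urothelial and epithelial markers summed to 4413 to 6115 CPM in WT and 4169 to 11167 CPM in NS1 libraries. Their part in the differences between the lines was not tested. In bulk RNA, less transcript in every cell and fewer cells with the transcript cannot be told apart.

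Of the 7 SREBP1 type genes 5 were called lower in NS1 cells without inducer and 6 with it, against 7.05% and 14.5% of all genes. The median log2 fold change was -0.68 and -0.85. FADS2, the desaturase that starts the synthesis of long polyunsaturated fatty acids, had 107, 111 and 117 CPM in untreated WT and 57.7, 69.9 and 70.0 CPM in untreated NS1 libraries. Its log2 fold change was -0.76 (SE 0.12, adjusted p = 0.00175 in edgeR), a 1.69-fold lower level, and -0.94 with inducer (SE 0.12, adjusted p = 0.000128). No NS1 library reached the lowest WT value in either comparison. FADS1, which acts later in the same route, had 399, 438 and 422 CPM in untreated WT and 254, 265 and 279 CPM in untreated NS1 libraries. It was lower by a log2 fold change of -0.66 without (SE 0.10, adjusted p = 0.00152) and -0.81 with inducer (SE 0.10, adjusted p = 0.000115). FADS1 and FADS2 lie on opposite strands of chromosome 11 and share 490 exon bases, and the library kit named in the labels is not a strand-marking one, so reads there could belong to either gene.

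The genes that build and extend saturated chains were lower too. FASN had 993, 817 and 885 CPM in untreated WT and 481, 572 and 618 CPM in untreated NS1 libraries, a difference of -0.69 on the log2 scale (SE 0.16, adjusted p = 0.0131). With inducer its values were 1135, 759 and 969 against 446, 569 and 549 CPM, a difference of -0.87 on the log2 scale (SE 0.16, adjusted p = 0.00132). ACACA, the carboxylase that makes malonyl-CoA, was lower by -0.75 without (SE 0.18, adjusted p = 0.0172) and by -0.85 with inducer (SE 0.18, adjusted p = 0.00364). For both genes NS1 and WT libraries did not overlap. ELOVL6 was lower by -0.55 without (SE 0.15, adjusted p = 0.0294) and by -1.01 with inducer (SE 0.15, adjusted p = 0.000378), when WT libraries had 21.8, 21.2 and 18.6 CPM and NS1 libraries 11.5, 8.82 and 10.1 CPM. ACLY was called with inducer (-0.41, SE 0.12, adjusted p = 0.0264) and had -0.37 without (adjusted p = 0.0708). SCD was not called, at -0.68 (95% interval -1.55 to 0.19) without and -0.33 (-1.20 to 0.53) with inducer. Its WT libraries had 780 to 1304 CPM and its NS1 libraries 286 to 1102 CPM, which overlap.

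Of the 20 SREBP2 type genes 5 were called lower and 1 higher in NS1 cells without inducer, against 7.05% and 5.45% of all genes. The median log2 fold change was -0.51 against 0.00 over all genes. With inducer 7 were called lower and 1 higher, against 14.5% and 13.6%, with a median of -0.41. Early in the route, ACAT2, the thiolase that joins acetyl-CoA units, had 205, 205 and 257 CPM in untreated WT and 112, 150 and 158 CPM in untreated NS1 libraries. It was lower by -0.67 without (SE 0.17, adjusted p = 0.0217) and -0.70 with inducer (SE 0.17, adjusted p = 0.00819). HMGCS1, the synthase of the following step, was not called, at -0.29 and -0.14. IDI1, the isomerase that makes the prenyl starter unit, had 94.3, 91.1 and 103 CPM in untreated WT and 41.1, 69.5 and 70.4 CPM in untreated NS1 libraries. It was lower by -0.67 in both comparisons (SE 0.19, adjusted p = 0.0326 without and 0.0177 with inducer). FDPS, which makes farnesyl diphosphate, was lower with inducer (-0.77, SE 0.24, adjusted p = 0.0268) and had -0.70 without (adjusted p = 0.0715). PMVK, a mevalonate pathway kinase, was lower with inducer (-0.47, SE 0.13, adjusted p = 0.0173) and had -0.11 without (adjusted p = 0.638).

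FDFT1, the squalene synthase, had -0.15 without and -0.18 with inducer. SQLE, the squalene epoxidase, had -0.06 (95% interval -0.33 to 0.22) and 0.00 (-0.28 to 0.27). MSMO1 had 0.02 and 0.06. None of these 3 was called. LSS, between SQLE and CYP51A1, had -0.54 without (adjusted p = 0.152), with every NS1 library below every WT library. With inducer it had -0.10 (adjusted p = 0.79 in edgeR), where the libraries overlapped. Among the later steps, NSDHL, a dehydrogenase that removes sterol methyl groups, had 106, 102 and 110 CPM in untreated WT and 62.0, 71.4 and 80.9 CPM in untreated NS1 libraries. Its log2 fold change was -0.57 without (SE 0.12, adjusted p = 0.00831) and -0.72 with inducer (SE 0.12, adjusted p = 0.000756). NSDHL levels in NS1 libraries did not reach those in WT libraries in either comparison. HSD17B7, which works with NSDHL, was lower with inducer, at 16.8, 19.3 and 20.4 CPM in WT and 8.73, 10.1 and 9.96 CPM in NS1 libraries (-0.97, SE 0.17, adjusted p = 0.00101). It had -0.51 without inducer (adjusted p = 0.0603). EBP, a sterol isomerase, was lower with inducer (-0.62, SE 0.18, adjusted p = 0.0196) and had -0.50 without (adjusted p = 0.084). Without inducer, too, all NS1 libraries were below all WT libraries for both genes. CYP51A1 was lower without inducer (-0.43, SE 0.11, adjusted p = 0.0192) and had -0.27 with it (adjusted p = 0.0729), and 2844 of its exon bases are shared on the same strand with a second annotated gene. TM7SF2 was lower without inducer (-0.68, SE 0.19, adjusted p = 0.0301) and had 0.27 with it (adjusted p = 0.285).

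SC5D, the desaturase late in the route, was higher in NS1 cells. It had 79.4, 85.2 and 77.4 CPM in untreated WT and 107, 99.7 and 107 CPM in untreated NS1 libraries, a difference of 0.37 on the log2 scale (SE 0.11, adjusted p = 0.0496). With inducer the values were 66.0, 90.1 and 82.4 against 107, 114 and 120 CPM, a difference of 0.52 on the log2 scale (SE 0.11, adjusted p = 0.00454). Every NS1 library was above every WT library in both comparisons. The untreated call sat at the threshold and was lost in each of the 6 fits without 1 library, with adjusted p from 0.0653 to 0.131, while the call with inducer was kept in all 6. The remaining SREBP2 type genes were called in neither comparison: MVK, MVD, DHCR7, INSIG1 and the cytosolic sterol carrier STARD4 had log2 fold changes from -0.56 to -0.36 without and from -0.75 to -0.27 with inducer.

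Among the LXR type genes ABCA1, which exports cholesterol to lipoprotein particles, was lower in NS1 cells. It had 1.59, 4.35 and 2.61 CPM in untreated WT and 0.247, 1.24 and 1.15 CPM in untreated NS1 libraries. Its counts were 4 to 78 over all 12 libraries. The log2 fold change was -1.73 without (SE 0.50, adjusted p = 0.0403) and -1.45 with inducer (SE 0.45, adjusted p = 0.0285). ABCG1, another sterol exporter, had 7 counts in all in untreated NS1 cells, 31 in treated NS1 cells and 33 in untreated WT cells. Relative to library totals, treated NS1 cells had 4.02 times the level of untreated ones (95% interval 1.73 to 10.8, exact binomial, covering counting error only). Of the 31 treated counts 21 came from replicate 3, and without that library the log2 fold change was 0.94 in place of 2.10. The blocked edgeR fit called this difference (adjusted p = 0.0102), and the unblocked one did not (adjusted p = 0.274). MYLIP, a ubiquitin ligase that marks lipoprotein receptors for breakdown, had 0.654 to 2.80 CPM over all libraries and was called in no comparison.

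Of the regulators, SREBF1 was lower in NS1 cells. It had 119, 87.5 and 87.4 CPM in untreated WT and 37.9, 60.0 and 63.5 CPM in untreated NS1 libraries, a difference of -0.87 on the log2 scale (SE 0.25, adjusted p = 0.04). With inducer the values were 145, 92.5 and 93.8 against 39.8, 70.3 and 67.8 CPM, a difference of -0.91 on the log2 scale (SE 0.25, adjusted p = 0.017). NS1 and WT libraries did not overlap in either comparison. SREBF2 (-0.26 and -0.15), INSIG2 (-0.26 and -0.09) and SCAP (0.02 and -0.10) were called in neither. SREBF1 shares 556 exon bases with RAI1 on the other strand.

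These calls depended on single libraries to different degrees. Without inducer NSDHL, FADS1 and FADS2 were called in all 6 fits without 1 library. Of the 13 genes, 6 lost their call without WT replicate 1, 8 without NS1 replicate 1, 6 without WT replicate 2, 8 without NS1 replicate 2, 6 without WT replicate 3 and 5 without NS1 replicate 3. SREBF1 lost it in all 6, with adjusted p up to 0.134. Over all genes these 6 fits called 1198 to 1780, against 2222 with all libraries. With inducer ACAT2, NSDHL, HSD17B7, SC5D, ACACA, FASN, ELOVL6, FADS1 and FADS2 were called in all 6, and the number of the 16 lost was 6 without NS1 replicate 1 and 2 or 3 without any of the other 5 libraries. With 2 libraries a group, the counts without inducer were 19 without replicate 1 and 0 without replicate 2 or replicate 3, where 204 and 182 of all genes were called. With inducer they were 21, 8 and 7.

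The NS1 libraries numbered 1 had less of most of these transcripts. In 26 of the 34 genes (76.5%) replicate 1 was below replicates 2 and 3 in both NS1 groups, against 28.7% of all genes. In both WT groups this held for 13 of the 34 (38.2%), against 23.5%. Of the SREBP2 type, 17 of 20 were lowest in both NS1 groups. In treated WT cells alone, replicate 1 was lowest in 15 of these 20 (75%), against 39.7% of all genes. In untreated WT cells it was lowest in 8 of 20 (40%), against 31.2%. The median of replicate 1 minus the mean of replicates 2 and 3 was -0.263 on the log2 scale in treated WT and -0.556 in treated NS1 cells. MVD, which decarboxylates mevalonate diphosphate, had 42.9, 113 and 129 CPM in untreated and 42.6, 120 and 137 CPM in treated NS1 libraries, but 117, 128 and 160 CPM in untreated WT libraries. SCD had 286, 715 and 798 CPM in untreated and 345, 1102 and 980 CPM in treated NS1 libraries. MVK, mevalonate kinase, had 26.0, 52.8 and 58.9 CPM and 23.1, 49.0 and 48.7 CPM in the same groups. Replicate 1 was the low value in all 6 of these NS1 series. They are shown as examples of a large shift and add no separate support.

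The shift was not the same in all the genes. As the mean over both NS1 groups, replicate 1 minus the mean of replicates 2 and 3 was -1.54 on the log2 scale for MVD, -1.50 for SCD, -1.09 for MVK, -0.83 for LSS and -0.77 for FDPS. It was -0.75 for SREBF1 and -0.41 for SREBF2. It lay near 0 for CYP51A1 (-0.06), SC5D (-0.04) and ACACA (-0.07), and above 0 for PMVK (0.17), ELOVL6 (0.27) and SCAP (0.42). In WT cells the same shift was 0.53 for SCD and 0.54 for SREBF1, opposite to NS1, and -0.35 for MVD. The NS1 libraries numbered 1 held 15627546 and 19425817 counts, against 10688691 to 13812276 in the other NS1 libraries. Urothelial and epithelial markers summed to 4169 and 5258 CPM in them and to 7390 to 11167 CPM in the others, and UPK3A was at 0 in all. KRT7, KRT8, KRT18 and KRT19, the markers with the highest levels, were each lower in them, as were EPCAM and UPK2 at low levels. GATA3, PPARG and FOXA1 were higher in them in both NS1 groups. GATA3 had 34.7 against 28.6 and 29.3 CPM untreated, and 104.5 against 60.3 and 69.8 CPM treated. The part of depth or of the marker levels in this shift was not tested.

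**Figure D4:**
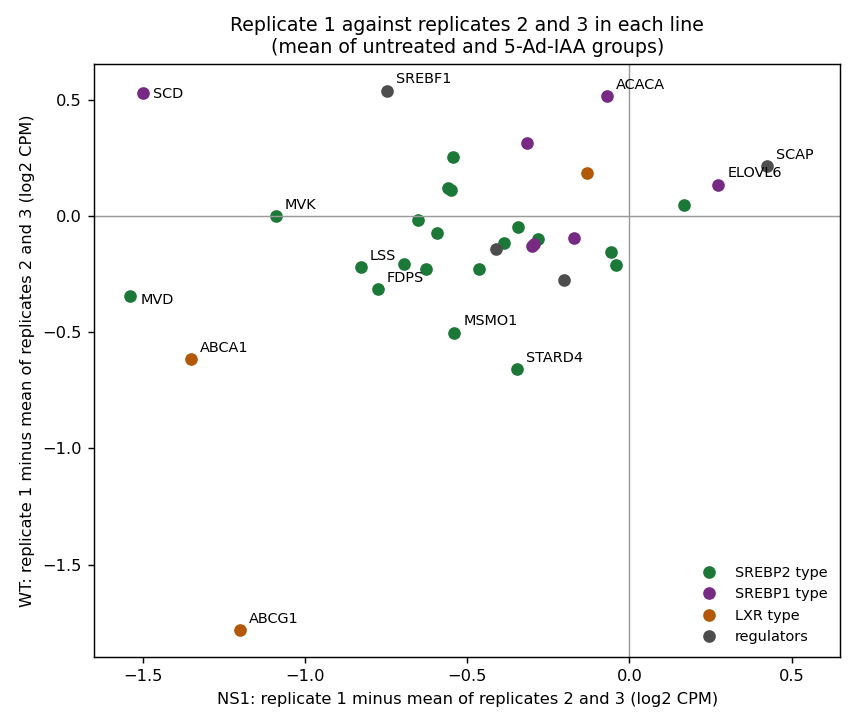
Log2 CPM of replicate 1 minus the mean of replicates 2 and 3, averaged over untreated and treated groups, in NS1 (x axis) and WT (y axis) for the 34 genes; colours mark the classes. MVD, SCD and ABCA1 lie farthest left, at -1.54, -1.50 and -1.35, and SCD and SREBF1 lie above 0 in WT.

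Without replicate 1 of any group the genes were still mostly lower in NS1 cells. There were 18 of 34 called lower without inducer, against 10.8% of all genes in that fit, and 19 with inducer, against 17.1%. The median SREBP2 type log2 fold change was then -0.354 without and -0.335 with inducer, and the SREBP1 type median -0.527 and -0.645. With the 2 NS1 libraries numbered 1 left out and all WT libraries kept, 9 genes were called without inducer, all lower, against 11.5% of all genes in either direction, and 17 with it, 15 lower and 2 higher, against 27.6%. ABCA1, ACACA, SC5D and SREBF1 then lost their calls without inducer, and ACLY lost its call with inducer.

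Genes of neighbouring routes were called in both directions between the lines, given here first without and then with inducer. Of all genes 12.5% were called without and 28.2% with inducer, in either direction, and the counts of the lists below are to be read against these shares. Among 19 tested genes of fatty acid handling outside the 34, 2 and 9 were called. ACSS2, which makes acetyl-CoA from acetate, was lower in NS1 cells by -1.09 (SE 0.14, adjusted p = 0.000554) and -0.73 (adjusted p = 0.00214). ELOVL7, an elongase of saturated chains, was higher by 0.77 (adjusted p = 0.00706) and 0.74 (adjusted p = 0.00356), opposite to ELOVL6. Among 14 genes of glycerolipid synthesis 3 were called in each comparison: GPAM, the mitochondrial acyltransferase that starts triglyceride synthesis, was higher by 0.87 (adjusted p = 0.00254) and 0.59 (adjusted p = 0.00894). PCYT2, of phosphatidylethanolamine synthesis, was lower by -0.52 (adjusted p = 0.00667) and -0.44 (adjusted p = 0.00733). Of 14 genes of sterol uptake and transport 2 and 5 were called. TMEM97, a sterol-responsive membrane protein, was lower by -0.67 (adjusted p = 0.0307) and -0.98 (adjusted p = 0.00168), and NPC2, a lysosomal cholesterol carrier, was higher with inducer by 0.64 (adjusted p = 0.0303).

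Of 16 genes of SREBP processing, sterol-regulated degradation and the partner factors NF-Y and SP1, 1 and 2 were called, with RNF145, a ubiquitin ligase that acts on SCAP, lower by -0.40 (adjusted p = 0.0268) and -0.69 (adjusted p = 0.000488). Of 10 further sterol and isoprenoid genes edgeR called 0 without inducer, with 4 at an unadjusted p under 0.05, and 1 with it, PDSS1, of ubiquinone synthesis, at -0.91 (adjusted p = 0.0088). Of 8 prenylation genes 1 and 3 were called. Of 13 further LXR receptors and partners, targets and oxysterol enzymes 10 passed the filter and 2 and 3 were called, and ABCA7, a lipid transporter, was higher with inducer by 0.85 (adjusted p = 0.000782) where ABCA1 was lower. For the inducer in NS1 cells these lists held 2 called genes, where 6.15% of all genes were called. ME1, the malic enzyme that supplies NADPH for fatty acid synthesis, had 22.5, 17.7 and 21.5 CPM without and 35.5, 28.3 and 32.1 CPM with inducer (log2 0.64, SE 0.12, adjusted p = 0.0103). ICMT, which methylates prenylated proteins such as RAS, had 210, 174 and 173 CPM without and 146, 142 and 130 CPM with inducer (-0.41, SE 0.10, adjusted p = 0.0296). For both genes the groups did not overlap, and the untreated values of ME1 were 23.9 to 25.8 CPM in WT cells.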

How the data were processed

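Poly(A) RNA-seq of 12 T24 libraries was analysed from raw counts, whole numbers for each gene in 1 deposited table, which the authors had not normalised per the values in it. STAR 2.7.3a, featureCounts 1.6.4 and hg38 are named in the submitters' processing notes, while the gene annotation and any strand setting are not given in the sources used here. Symbols were matched to 60306 of 60603 gene identifiers. The genes and gene lists were chosen with earlier results of these data known.

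Counts were fitted with edgeR 4.0.16 in R 4.3.3: filterByExpr (17775 genes kept), TMM scaling and quasi-likelihood fits in which the 4 groups, 12 libraries in all, each had a mean. Tests were two-sided, with Benjamini-Hochberg adjustment over all genes tested and calls under 0.05. DESeq2 1.42.0 and the other alternatives are given in the closing section. All 34 genes are reported. Genes of the other lists are named by rule, up to 2 highest and 2 lowest called genes per list and comparison with a mean of at least 1 CPM, and only some of those are printed. Untreated and treated libraries with the same replicate number had correlated deviations from their group means (0.713, 0.386 and 0.384 in NS1, 0.752, 0.385 and 0.256 in WT). The numbers were therefore used as pairs in the blocked inducer fits. The main fit had no term for replicate number, so its inducer calls and intervals leave this pairing out. Replicates 2 and 3 correlated with each other about as much (0.278 and 0.371 in NS1, 0.248 and 0.367 in WT), so that replicate 1 was the number set apart. No pair of libraries agreed within sampling noise (lowest chi-square per degree of freedom 3.03). On simulated data for the NS1 inducer comparison, with 200 of 17550 genes changed, 63.3% of changes of 1 log2 unit and 42.9% of changes of 0.7 were called. Of the unchanged genes 13 were called too. The simulated libraries were drawn without a shift by replicate number, unlike the real ones.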

Additional observations from a re-analysis of the deposited data

Results flagged for a closer look

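For 3 genes the effect of the inducer differed between the lines when tested directly, as an interaction with replicate numbers blocked inside each line. The interaction on the log2 scale was 0.93 for TM7SF2, 0.42 for LSS and -0.47 for ELOVL6. These 3 of 34 genes stand against 14% of all genes called in the same fit. In the unblocked edgeR fit none of the 3 was called, with adjusted p of 0.128, 0.682 and 0.403.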

How the results depend on the processing

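Leaving out a replicate or library in turn, the number of the 34 genes called ranged from 0 to 4 for the inducer in NS1 cells, 0 to 19 for untreated lines, 7 to 21 for treated lines and 0 to 1 for the interaction. The number of all genes called ranged from 0 to 2021, 182 to 3466, 1632 to 6007 and 0 to 573 in the same order. The SREBP2 type median ranged from -0.195 to 0.0948, -0.619 to -0.337, -0.478 to -0.248 and -0.18 to 0.169 in the same order. For the inducer in NS1 cells 2 genes were called with no low-count filter (1801 of all genes), 2 with 1 replicate block over all libraries (2421) and 7 with the block inside each line (4596). The SREBP2 type median there was -0.12 with library totals in place of TMM, where the median of all genes was -0.0537. Without both NS1 libraries numbered 1, a choice made after seeing the data, it was -0.0272, and -0.247 between treated lines. Between untreated lines 22 of the 34 were called with no low-count filter, and 2978 of all genes. For the interaction 1 gene was called with no filter, with DESeq2, with 1 replicate block and without both NS1 libraries numbered 1, and 3 with the block inside each line. Of all genes 683, 377, 634, 148 and 2495 were called in these fits, in the same order. In WT cells 0 of the 34 were called under each alternative run.

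Replicate numbers were not taken to pair the lines, since same-numbered libraries had correlations of 0.136, 0.0719 and 0.19 without and 0.153, 0.12 and 0.00601 with inducer. The replicate block there called 23 in place of 13 and 20 in place of 16 genes.

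Some genes that were not called changed sign when libraries were left out, and the cause was not tested. On the log2 scale FDPS ran from -0.264 to 0.173 (inducer in NS1), and values ran from -0.369 to 0.608 for MYLIP, including -0.167, and -0.123 to 0.0971 for SC5D (inducer in WT). Between untreated lines they were -0.505 to 0.0359 for HMGCS1, -0.271 to 0.0354 for FDFT1 and -0.158 to 0.0727 for SQLE. Between treated lines they were -0.246 to 0.158 for LSS, -0.726 to 0.25 for SCD and -0.646 to 0.144 for MYLIP, and the MYLIP interaction from -0.12 to 1.18. Without both NS1 libraries numbered 1, FDFT1 was 0.027 between untreated and LSS 0.159 between treated lines. Low counts limit ABCA1, ABCG1 and MYLIP.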
